A study of Rattus norvegicus with 13 samples.

Results

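miR-21 is 1 of the 350 rat miRNAs on an Agilent array that was hybridised with RNA from 4 kinds of primary brain culture. It was found by its name in the array annotation (rno-miR-21), which gives it 2 probes printed as 10 spots each, and its passenger strand (miR-21*) is listed separately. The cultures were made from rat cortex taken on postnatal day 1, with no further treatment or genotype named in the labels, and gave 3 neuron, 4 astrocyte, 3 oligodendrocyte and 3 microglia arrays. Neurons were grown in Neurobasal medium with cytosine arabinoside, which kills dividing cells. Astrocytes were grown in MEM with horse serum and shaken overnight to remove other cells. Oligodendrocytes were the cells shaken off mixed cultures and replated on poly-lysine, and microglia were the cells that floated above such cultures. Every sample is labelled as 10 days in vitro, although the protocol collects microglia at 7 days. Each array received 100 ng of total RNA. The cultures therefore differ in medium, serum and handling as well as in cell type, and these cannot be told apart.

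miRNAs are short RNAs that are cut from a hairpin precursor and pair, through the seed at their 5′ end, with target mRNAs to lower their translation and stability. miR-21 is transcribed under STAT3 and AP-1, lowers PDCD4 among other targets, and is known in the brain for its rise in reactive astrocytes and activated microglia after injury. miR-21* is the other strand of the same hairpin and is usually the less abundant one.

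The sequences below show what the probes could see. The hairpin of Mir21 lies on the minus strand of GRCr8 at chr10:71902600-71902691 in the RefSeq table, with both mature strands in capitals in the first line. miR-21 itself spans chr10:71902653-71902674 and is shown with its seed, bases 2 to 8, in capitals. The passenger strand spans chr10:71902615-71902636 and is shown in the same way. In the array annotation, on build rn4, both probes start at chr10:74864553 and end at 74864572 and 74864571. The last lines show in capitals the bases that each probe matches, which run from base 3 or base 4 to the 3′ end, at base 22.
Mir21 hairpin: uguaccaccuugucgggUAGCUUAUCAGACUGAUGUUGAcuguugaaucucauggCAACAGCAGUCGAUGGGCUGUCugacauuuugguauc
miR-21: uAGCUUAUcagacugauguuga
miR-21*: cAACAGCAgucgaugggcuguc
20-base probe target: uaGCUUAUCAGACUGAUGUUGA
19-base probe target: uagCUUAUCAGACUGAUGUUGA
The arm was assigned from the spacing of 38 bases between the 2 strands, which is the same in both builds. No other of the 693 mature rat miRNAs in the RefSeq table has this seed. The longest run of bases that any of the other 692 shares with the 20-base target is 9 bases.

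miR-21 was detected on all 13 arrays. Its total signal, the summed and background-subtracted intensity of its probes before any scaling, was 715.3, 1321.5 and 756.8 on the neuron arrays. It was 24414.8, 19283.4, 29585.9 and 37841.0 on the astrocyte arrays. On the oligodendrocyte arrays it was 4577.0, 4612.9 and 4956.0, and on the microglia arrays 34579.6, 18255.9 and 32904.2. The lowest glial array stood above the highest neuron array, and astrocytes overlapped microglia. The scanner software's error on these totals was 7.16% to 7.30% of the signal. Of its 260 spots, 0 were saturated, 257 were well above background and 20 carried an outlier call and were dropped. The spots of a probe had a coefficient of variation of 1.06% to 15.5% on 1 array, with the highest value on oligodendrocyte array 2, where 17 of 20 spots were well above background.

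The summed miRNA signal was 276438.3 to 514270.0 on the neuron arrays and 107624.3 (oligodendrocyte array 2) to 300151.7 on the others. The neuron, oligodendrocyte and microglia arrays carried their own markers, while no list of astrocyte markers was used, so the astrocyte arrays were not checked this way. The 6 neuron markers summed to 10.1% to 10.9% of the signal in neurons and the 5 myeloid markers to 18.8% to 20.6% in microglia. The 3 oligodendrocyte markers summed to 11.1%, 6.03% and 10.1% on the oligodendrocyte arrays and to at most 1.85% elsewhere. Oligodendrocyte array 2 stood apart: its neuron markers summed to 3.38% against 0.931% and 1.28% on the other two, and its myeloid markers to 1.40% against 0.539% and 0.688%. Slide 1 held the neuron and oligodendrocyte arrays, and slide 2 those of astrocytes and microglia. Only neurons with oligodendrocytes and astrocytes with microglia are thus compared within a slide, and in the other 4 pairs slide and cell type cannot be told apart.

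Which cell types carry miR-21, and in what order, was asked first. Levels are log2 of the signal over the array's own 75th percentile, so 0 is a bright miRNA of that array. In neurons the level was -0.95, -0.97 and -0.94 (mean -0.955 ± 0.017 SD, n = 3), and the 3 arrays lay closer together than those of any other type. In oligodendrocytes it was 1.47, 2.34 and 1.65 (1.82 ± 0.46, n = 3), with array 2, the one that stood apart, highest. In astrocytes it was 4.43, 4.27, 4.18 and 4.21 (4.27 ± 0.11, n = 4). In microglia it was 5.07, 4.25 and 5.45 (4.92 ± 0.62, n = 3), so that microglia array 2 fell inside the astrocyte range. The order was neurons, oligodendrocytes, astrocytes and microglia, with no overlap between arrays except between the last pair.

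**Figure D1:**
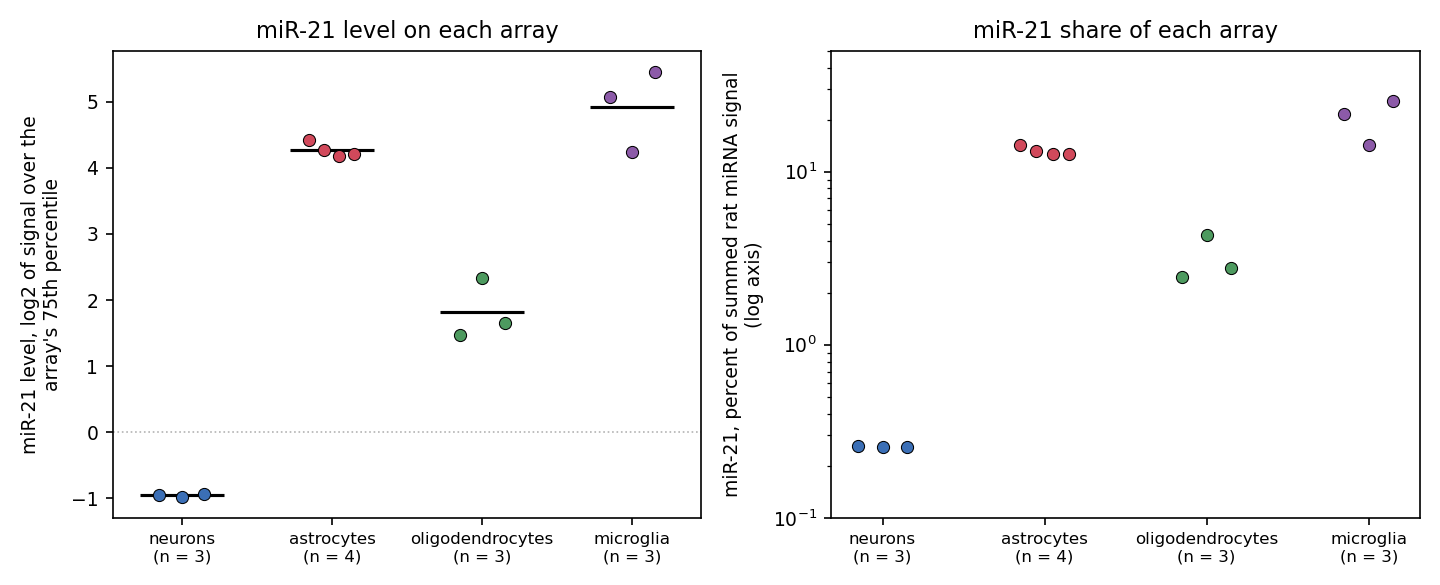
miR-21 on each of the 13 arrays. Left, the level as log2 of signal over the array's 75th percentile, with 1 point per array and the group mean as a line. Right, the share of the summed rat miRNA signal in percent, on a log axis. The neuron arrays lie at 0.257% to 0.259%, the oligodendrocyte arrays at 2.47% to 4.29%, and the astrocyte and microglia arrays at 12.6% and above.

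The 4 types differed in miR-21 (limma F test with Benjamini-Hochberg adjustment over 268 tested miRNAs, adjusted p = 7.09e-09), as did 95.5% of the tested miRNAs. Nearly every tested miRNA thus differed among these cultures, so sizes are given beside the calls. The 4 group means of miR-21 spanned 5.88 in log2, the 6th widest span among the 119 miRNAs detected on all arrays, whose median span was 2.10. Those with wider spans were miR-9 (9.63) and miR-9* (6.79), both enriched in neural cells, the myeloid miR-223 (8.63), the neuronal miR-128 (6.465) and the oligodendrocyte miRNA miR-219-5p (6.15). This ranking left out every miRNA that some array did not detect. Some of those spanned more, such as miR-146a (neurons minus microglia -11.6) and miR-142-3p (-10.4).

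Against neurons, miR-21 was higher in each glial type. Astrocytes exceeded neurons by 37.4-fold (neurons minus astrocytes -5.23 ± 0.264 SE in log2, limma adjusted p = 7.0e-09). In this pair 81.3% of tested miRNAs passed, 25.4% as lower in neurons, and the arrays did not overlap for 83.2%. The miR-21 difference was the 3rd lowest of the 268, and the lowest of the 119 detected on all arrays. Microglia exceeded neurons by 58.8-fold (-5.88 ± 0.282, limma adjusted p = 2.99e-09), the 6th lowest difference in a pair where 83.2% passed, 31.0% as lower in neurons. The fold moved with the scaling: it was 30.2 for microglia without scaling, and 135 for microglia and 72.7 for astrocytes with the 75th percentile over all miRNAs, with direction and call kept. Both pairs span the 2 slides.

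Oligodendrocytes exceeded neurons on the same slide by 6.83-fold (-2.77 ± 0.282, limma adjusted p = 3.23e-06), where 78.0% of the miRNAs passed, 19.8% as lower in neurons, and the arrays did not overlap for 83.2%. This was the 17th lowest difference. Without oligodendrocyte array 2 it was -2.51, with the call unchanged. The fold was 10.6 under quantile normalization, 12.0 when scaled to the summed signal and 13.7 with the 75th percentile over all miRNAs. It was lower without scaling (5.16) and with normexp background correction (6.20). Against the mean of the 3 glial types, neurons were lower by 24.7-fold (-4.62 ± 0.228, limma adjusted p = 4.65e-09), with 85.1% of miRNAs passing and 28.7% lower in neurons. With the 75th percentile over all miRNAs this fold was 51.3, without scaling it was 16.8 and with normexp background correction 22.0.

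Among glia, miR-21 was lowest in oligodendrocytes. Astrocytes exceeded oligodendrocytes by 5.48-fold (2.45 ± 0.264, limma adjusted p = 1.42e-05), the 12th highest difference, where 56.3% of miRNAs passed and 25.7% were higher in astrocytes. Microglia exceeded oligodendrocytes by 8.61-fold (oligodendrocytes minus microglia -3.11 ± 0.282, limma adjusted p = 1.63e-06), the 14th lowest difference, where 61.6% passed and 29.5% were lower in oligodendrocytes. That fold was 4.23 under quantile normalization and 4.61 with the deposited table, with the call kept. Arrays did not overlap for 65.7% and 60.8% of miRNAs in these 2 pairs, which also span the slides.

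Astrocytes and microglia, on the same slide, were not clearly separated. The fitted difference was 1.57-fold in favour of microglia (-0.65 ± 0.264, 95% interval of the fold 1.05 to 2.36), with a limma adjusted p of 0.0492 and with overlapping arrays. In this pair 65.7% of miRNAs passed, 35.8% as lower in astrocytes, and for 62.7% the arrays did not overlap. The call rested on the processing: it held under 10 of 29 alternatives, was lost under 17, and the sign turned under 2. Without microglia array 2 the difference was -0.99 (limma adjusted p = 0.00189), and without microglia array 3 it was -0.39 (limma adjusted p = 0.217). The call was also lost when any 1 astrocyte or neuron array, microglia array 1 or oligodendrocyte array 3 was left out (limma adjusted p = 0.0512 to 0.129). Without scaling between arrays the difference was 0.01.

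In bulk RNA, a low level cannot be told apart as fewer cells that carry miR-21 or less miR-21 in each cell. The labels number the arrays of a type as replicates without saying whether they came from separate animals, so the p-values cover only the spread between these arrays, which may be technical.

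The share of miR-21 in the array's summed miRNA signal followed the same order. It was 0.259%, 0.257% and 0.257% in neurons and 2.47%, 4.29% and 2.77% in oligodendrocytes. It was 14.2%, 13.1%, 12.6% and 12.6% in astrocytes and 21.5%, 14.2% and 25.6% in microglia. The lowest microglia array matched the highest astrocyte array, and all other types were apart. The shares differed among the types (exact permutation test over 1201200 assignments, p = 4.995e-06, the smallest it can give). A share compares signals of different probes, whose binding and labelling differ, so it is not a molar fraction.

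By rank of total signal, miR-21 was the brightest miRNA on all 4 astrocyte and all 3 microglia arrays. It ranked 12, 4 and 11 on the oligodendrocyte arrays and 57, 56 and 57 on the neuron arrays. In astrocytes the next brightest was miR-9, the miRNA of neural progenitors and neural cells, with 7.65% ± 0.13 (SD, n = 4) of the signal, and miR-21 exceeded it by 1.67-fold to 1.83-fold. In microglia the next was miR-146a, a brake on Toll-like receptor signalling, with 10.5% ± 2.3 (n = 3). There miR-21 exceeded miR-146a by 2.33-fold and 2.80-fold on arrays 1 and 3, and by 1.07-fold on array 2.

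In oligodendrocytes miR-21 was 9th by mean share, at 3.17% ± 0.98 (n = 3). The 5 highest above it were miR-9 (8.11% ± 0.40), miR-338, which promotes oligodendrocyte differentiation (5.32% ± 1.93), miR-9* (5.23% ± 0.26), let-7a (4.13% ± 0.028) and let-7f (4.00% ± 0.62). In neurons it was 56th, at 0.2575% ± 0.0011 (n = 3), far below miR-125b-5p (10.07% ± 0.054) and miR-9 (9.28% ± 0.24). miR-9*, let-7c and let-7a followed there, with mean shares of 5.44%, 5.21% and 4.71%.

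**Figure D2:**
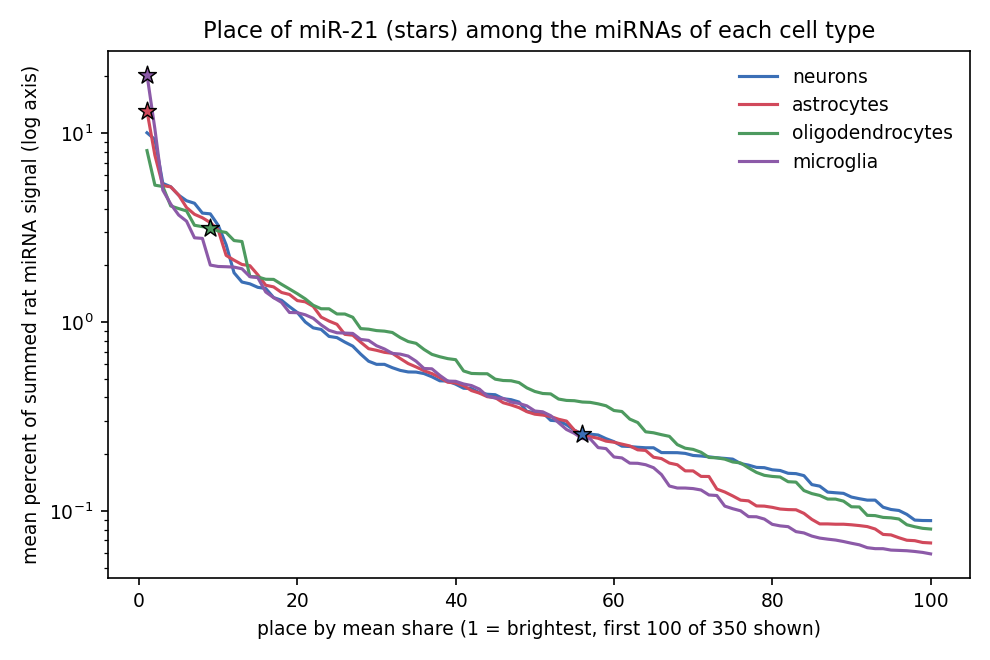
Mean share of the summed rat miRNA signal, in percent on a log axis, against place by that share for the first 100 of 350 miRNAs, with 1 line per cell type and miR-21 as a star. miR-21 stands at place 1 in astrocytes and microglia, 9 in oligodendrocytes and 56 in neurons.

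Whether the pair of probes gave the same picture was compared next. The 20-base probe was brighter on every array, with spot means of 647.9 to 1251.7 in neurons, 3954.8 to 4271.9 in oligodendrocytes, 17474.5 to 35067.0 in astrocytes and 15808.8 to 29673.3 in microglia. Its ratio to the 19-base probe was 1.57, 1.67 and 1.66 in neurons. The ratio was 1.52, 1.55, 1.54 and 1.57 in astrocytes and 1.41, 1.52 and 1.43 in oligodendrocytes. In microglia it was 1.36, 1.41 and 1.42. Microglia lay below all neuron and astrocyte arrays, and oligodendrocyte array 2 lay above the other two of its type.

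The log2 ratio differed among the types (exact permutation test, p = 5.994e-05, group means 0.708, 0.626, 0.540 and 0.481 in neurons, astrocytes, oligodendrocytes and microglia). With normexp background correction the means were 0.636, 0.624, 0.531 and 0.479 in the same order (exact permutation test, p = 0.00487), so neurons and astrocytes lay closer together. Among 116 miRNAs detected on all arrays with 2 or more usable probes, 46.6% showed such a difference after Benjamini-Hochberg adjustment of the same test, with an adjusted p of 0.00116 for miR-21. This comparison was added after the values were seen, and takes the brightest against the dimmest probe of each miRNA. The span of the group means was 0.227 in log2 for miR-21 against a median of 0.215, and 56 of the 116 had a wider one. The probe difference of miR-21 was therefore of ordinary size for this array, and small beside the 5.88 between neurons and microglia. With either probe alone, every pair but astrocytes with microglia kept its direction and call.

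**Figure D3:**
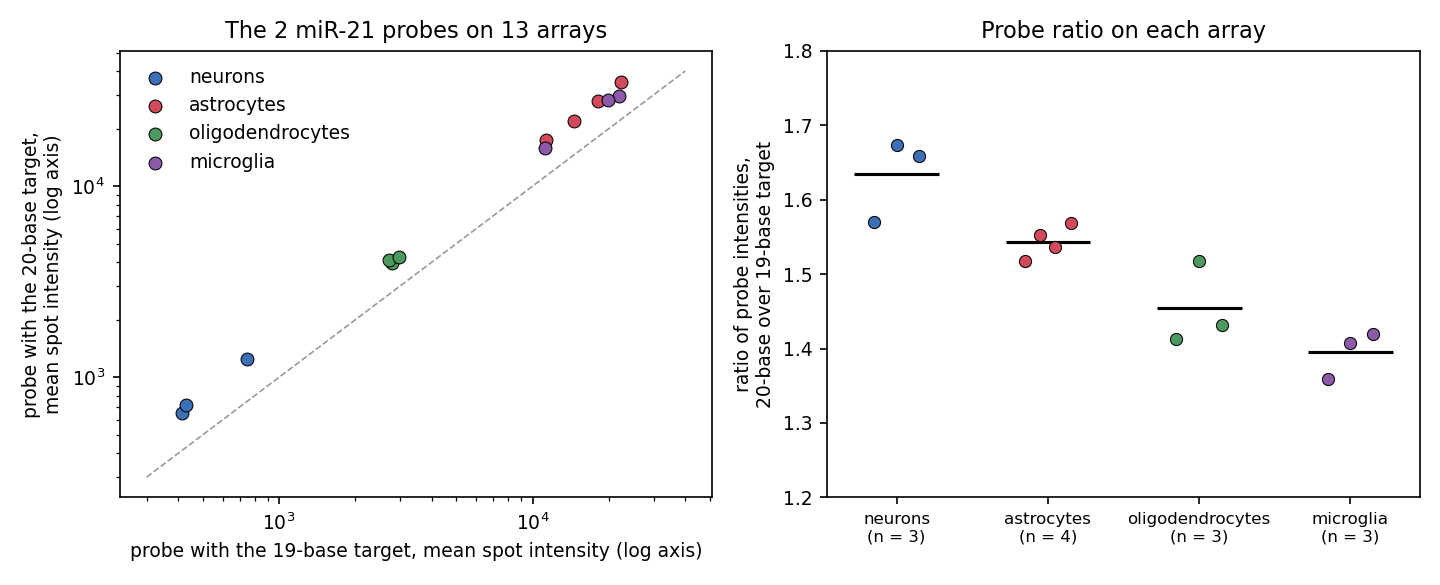
Left, mean spot intensity of the 20-base probe against that of the 19-base probe on 13 arrays, both on log axes, with the line of equal signal dashed. Right, their ratio on each array, with the group mean as a line. The 20-base probe is the brighter one on every array, and the ratio runs from 1.67 in a neuron array to 1.36 in a microglia array.

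The passenger strand miR-21* was dim. Its 4 probes match only 12 to 15 bases, from chr10:74864515 of rn4. It was detected on 5 arrays: all 3 of microglia, and astrocyte arrays 1 and 4. It was not detected on any neuron or oligodendrocyte array. Its level was -5.48, -6.11 and -5.27 in microglia (-5.62 ± 0.44, n = 3) and at or below -7.03 on the astrocyte arrays, near the floor of -8.04. Microglia exceeded astrocytes by 3.50-fold with no overlap (astrocytes minus microglia -1.81 ± 0.240 SE, limma adjusted p = 3.89e-05). The fold was 1.525 with normexp, 1.96 with the deposited table and 2.36 with the 5th percentile floor, with the call kept. Only 2 of the 4 astrocyte arrays measured it. Microglia were at least 5.35-fold above neurons and at least 4.50-fold above oligodendrocytes. The bound was the lowest detected signal of each array, or the floor where that was higher. For neurons the floor set it. Whether the difference between astrocytes and microglia is larger for miR-21* than for miR-21 was not tested.

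The miRNAs whose levels ran most like those of miR-21 were found by Pearson's r over the 13 arrays among the other 267 tested miRNAs, whose median r was -0.365. These r are descriptions: the arrays fall into 4 types and 2 slides, so few steps carry each value. Above 0.9 were 6 miRNAs, namely miR-25 (0.973), miR-93 (0.947), miR-15b (0.945), miR-146a (0.937), miR-142-3p (0.937) and miR-223 (0.933). The next was miR-27a (0.897). By Spearman's rho miR-146a was only 14th (0.857), and the other 5 were within the first 5 places. Within slide 1 (6 arrays) their r was 0.984 to 0.998. Within slide 2 (7 arrays) it was 0.935 for miR-25, 0.905 for miR-93 and 0.870 for miR-15b, and 0.669 to 0.787 for the other 3.

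The 6 were of 2 kinds. The first kind held miR-25 and miR-93, cut from 1 primary transcript in an intron of Mcm7, and miR-15b, of the cell-cycle regulating miR-15/16 family. It moved over a narrower range than the other kind. miR-25 stood at -2.25 ± 0.029 in neurons, -1.28 ± 0.059 in oligodendrocytes, -0.94 ± 0.030 in astrocytes and -0.82 ± 0.17 in microglia. miR-93 stood at -2.62, -1.22 (array range -1.31 to -1.11), -1.01 and -0.73 in the same order, and miR-15b at -1.55, -0.07, 0.21 and 1.14. The other kind spanned far more: miR-146a, the haematopoietic miR-142-3p and the myeloid miR-223 were low in neurons and high in microglia. In neurons miR-146a and miR-142-3p were close to the floor, while miR-223 lay above it and was detected on all 3 arrays. miR-142-3p stood at -7.69 ± 0.085 in neurons, where 1 of 3 arrays detected it, and at 2.68 ± 0.36 in microglia. miR-223 stood at -6.28 ± 0.45 and 2.35 ± 0.57. On microglia array 2, which had the lowest miR-21 of its type, 5 of the 6 were also at their lowest, and miR-146a was at its highest.

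Mature sequences are shown for the resolved miRNAs of each kind, with the seed in capitals, since neither seed is that of miR-21. miR-25 lies at chr12:22156652-22156673 on the minus strand and miR-142-3p at chr10:73055155-73055177 on the plus strand of GRCr8.
miR-25: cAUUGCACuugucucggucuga
miR-142-3p: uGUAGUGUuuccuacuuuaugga

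**Figure D4:**
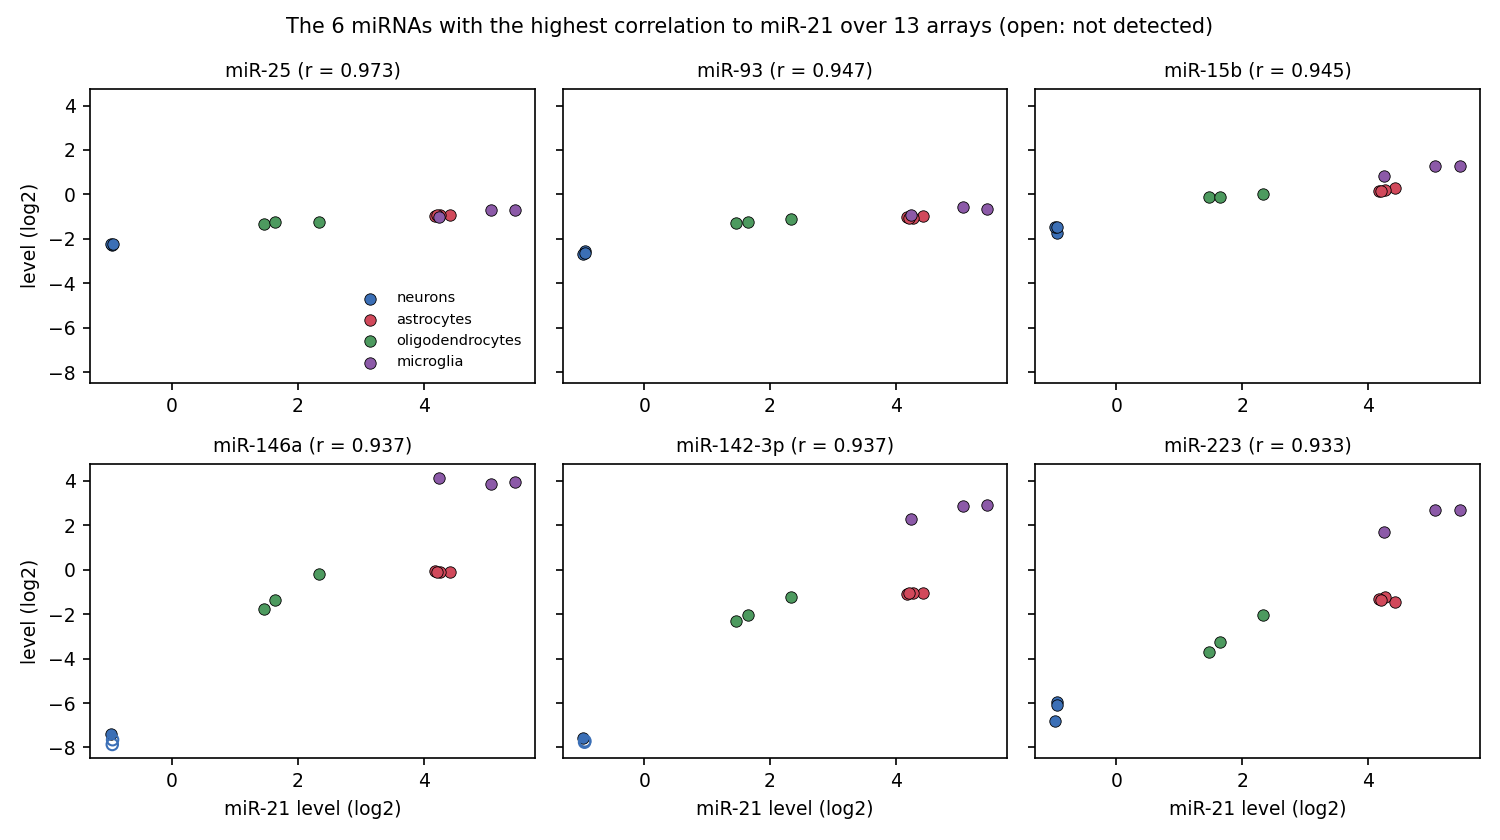
Level of each of the 6 most similar miRNAs against the level of miR-21 (both log2 of signal over the array's 75th percentile), with 1 point per array and open points where the miRNA was not detected. miR-25, miR-93 and miR-15b are lowest in neurons and span less. miR-146a, miR-142-3p and miR-223 reach from low levels in neurons, near the floor for miR-146a and miR-142-3p, to 1.70 and above in microglia.

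Because microglia were collected from mixed cultures that also held astrocytes, the myeloid markers were set beside miR-21 in the other cultures. All 5 markers were detected in astrocytes, where they summed to 1.22% to 1.34% of the signal, and 4 of 5 in oligodendrocytes (0.539% to 1.40%). In neurons they summed to 0.0113% to 0.0128%, with miR-142-5p and miR-150 not detected. In astrocytes miR-21 stood at 63.7% of its microglial level. There miR-142-3p stood at 7.49%, miR-142-5p at 6.11%, miR-223 at 7.72%, miR-146a at 5.97% and miR-150 at 0.878% of theirs. In oligodendrocytes miR-21 stood at 11.6%, and the 4 markers detected there at 2.48% to 4.97%. In neurons miR-21 stood at 1.70%, and the markers at 0.0317% to 0.402%, with values at the floor included. In all 3 types miR-21 was nearer to its microglial level than each marker, and the markers were listed for being myeloid. How much of the miR-21 in these cultures came from microglia was not tested.

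Of the mesenchymal and mural markers, miR-145 and miR-199a-5p were detected in no type and miR-143 in astrocytes only. miR-199a-3p was detected on all 4 astrocyte arrays, all 3 oligodendrocyte arrays and 1 microglia array, and miR-214 on all 3 neuron arrays and no other. The list summed to at most 0.0675% of any array. Of the endothelial pair, miR-126 and miR-126*, neither was detected in oligodendrocytes, and the sum was highest in microglia (0.101% to 0.178%). On oligodendrocyte array 2, the highest miR-21 of its type went with the highest myeloid and neuron marker sums, and their part in the result was not tested.

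**Figure D5:**
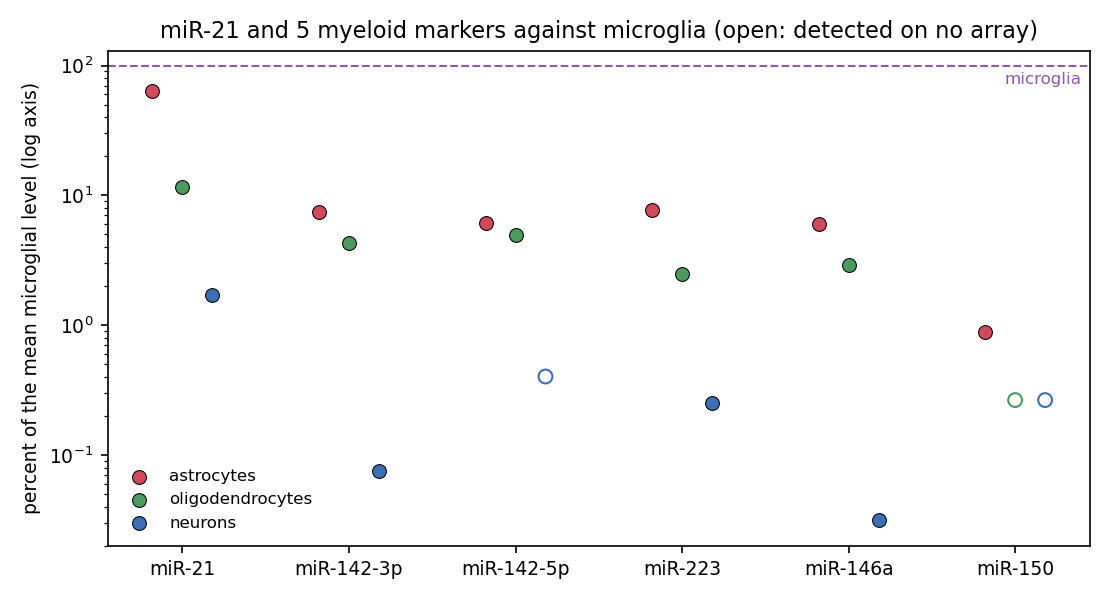
Level of miR-21 and of 5 myeloid markers in astrocytes, oligodendrocytes and neurons as a percent of the mean microglial level, on a log axis, with open points where no array of the type detected the miRNA. miR-21 reaches 63.7% in astrocytes, where the 5 markers lie between 0.878% and 7.72%.

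miR-21 was also placed in a list, made from general knowledge, of miRNAs linked to induction by inflammatory transcription factors (NF-kB, AP-1 or STAT3). Whether these factors induce each member in these cells was not tested. Of that list 9 were on the array and 8 were tested. miR-147 was detected nowhere, and miR-155 is not analysed here. In astrocytes against neurons 5 of 8 were lower in neurons (miR-21, miR-146a, miR-146b, miR-221 and miR-222), 2 were higher (miR-132 and miR-9) and miR-181b did not pass. Over all tested miRNAs 25.4% were lower and 56.0% higher in neurons. In microglia against neurons the same 5 were lower in neurons, and miR-132, miR-9 and miR-181b were higher, with 31.0% lower and 52.2% higher over all tested. In oligodendrocytes against neurons 3 were lower in neurons (miR-21, miR-146a and miR-181b) and the other 5 were higher, with 19.8% lower and 58.2% higher over all tested. The median differences, with neurons first, were -1.09, -1.35 and 0.96 against 0.55, 0.58 and 0.79 over all tested miRNAs, for astrocytes, microglia and oligodendrocytes. These counts include miR-21 itself and moved with the processing. Without scaling 4 of 8 were lower in neurons than in astrocytes, and 4 of 8 lower than in microglia. In oligodendrocytes against neurons the number higher in neurons was 3 with normexp or the 75th percentile over all miRNAs. With the deposited table or quantile normalization, 3 were higher and 4 lower.

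miR-221, which targets cell-cycle inhibitors, was tested in each pair. Its level was -2.69, -2.72 and -2.58 in neurons and -0.57 to -0.88 in astrocytes. In microglia it was -0.36, -1.07 and -0.14, and in oligodendrocytes -5.28, -3.46 and -4.71. It was 3.75-fold higher in astrocytes and 4.41-fold higher in microglia than in neurons, and 3.54-fold lower in oligodendrocytes than in neurons (limma adjusted p = 0.000476, 0.000288 and 0.00107). Direction and call held under the alternatives, but the sizes did not: the oligodendrocyte fold fell to between 1.66 (deposited table) and 2.02 (scaled to the summed signal) under 5 of them, the astrocyte fold reached 7.31 under quantile normalization, and the microglia fold ran from 2.27 without scaling to 10.1 with the 75th percentile over all miRNAs. miR-146b, a close relative of miR-146a, was 2.12-fold higher in microglia than in astrocytes (limma adjusted p = 1.46e-07), at -2.33 ± 0.082 against -3.41 ± 0.027, with 1.34-fold and no call without scaling. miR-181b was 2.22-fold higher in oligodendrocytes than in neurons (limma adjusted p = 4.04e-05), and the call was lost without scaling (adjusted p = 0.0638), while the fold reached 4.46 with the 75th percentile over all miRNAs. miR-9 was 1.65-fold higher in neurons than in astrocytes (limma adjusted p = 3.98e-07), and the direction turned with the 75th percentile over all miRNAs (-0.24). Its call was also lost under quantile normalization, where the difference was 0.0, and with the deposited table (0.15, limma adjusted p = 0.218).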

How the data were processed

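Per the labels' protocols, RNA was labelled at its 3′ end with Cy3. The deposited scanner files hold spot intensity and a total intensity per miRNA with its error and detection call. Per the file headers, Agilent Feature Extraction 9.5.3.1 subtracted background with spatial detrending, and did not scale one array to another. From its values, the deposited series table appears to hold log2 totals after quantile normalization (column medians 5.22 to 5.24). Its scale, centring and method are not given in the sources used here, and it served as an alternative.

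Spots with outlier calls were dropped, spots averaged per probe and probes per miRNA. Scaling was to the 75th percentile of an array's 119 miRNAs that all 13 arrays detected, with a floor at 0.38% of it (-8.04 in log2), before log2 was taken. A fit over all arrays took the 268 miRNAs that 3 or more arrays detected, in R 4.3.3 with limma 3.58.1 (lmFit, eBayes), with Benjamini-Hochberg adjustment and a threshold of 0.05. Shares and ranks used total signals. Shares and probe ratios had exact permutation F tests, two-sided by construction. The steps were tested on simulated data. Other steps ran in Python 3.11.15 (matplotlib 3.10.9, numpy 2.4.6 and pandas 2.3.3). The number of arrays limits the precision.

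The member and the lists, which come from general knowledge, were chosen with earlier results of these data known. Named were miR-21, miR-21*, the 6 miRNAs with the highest r, up to 5 with a higher mean share per type, and every list member on the array. A second list of related miRNAs is not reported here. Those with wider spans than miR-21 were picked from their values. Alternatives covered background, scaling, summary, filter, floor, variance model, samples fitted, a replicate block, each probe alone and each array left out.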

Additional observations from a re-analysis of the deposited data

How the results depend on the processing

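Of the miR-21 results, the difference between astrocytes and microglia depended on the processing (-0.65 in log2, limma adjusted p = 0.0492). It turned in sign with the deposited table (0.12) and without scaling (0.01), and was 0.0 under quantile normalization, where miR-21 was brightest in both types and so took 1 value. It kept its direction but lost its call with the 5th percentile floor, no filter on detection or only the groups compared in the fit (-0.65 each), the brightest probe (-0.64), the 20-base probe alone (-0.59) and the replicate number as a replicate block (-0.63). Leaving out 1 array gave -0.99 to -0.39. The causes were not tested. All 233 alternatives of the other miR-21 results kept direction and call, including the probe ratio. Scaling moved the median over all tested miRNAs, for neurons minus astrocytes from 0.545 to between -0.284 and 0.846, and miR-21 minus that median stayed between -5.911 and -5.205. Deviations of same-numbered arrays from their group means had r of -0.339 to 0.202 over 18 pairs. With so few arrays per type, these r cannot show whether such arrays shared animals. The replicate block changed no other miR-21 call. Of 350 alternatives of the other named miRNAs and list counts, 334 kept direction and call or, for counts, stayed within 1.5 times. With the 75th percentile over all miRNAs, neurons minus astrocytes turned for miR-9 (-0.24).

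The number of calls over all miRNAs moved by over 1.5 times with detection required on all arrays (119 tested: 117 against 256 among types, 101 against 218, 97 against 209, 100 against 223, 89 against 151, 97 against 176 and 90 against 165 for the 6 pairs in the order neurons minus astrocytes, oligodendrocytes and microglia, astrocytes minus oligodendrocytes and microglia, oligodendrocytes minus microglia, and 104 against 228 for neurons minus glia). Normexp gave 132 against 218, 133 against 209 and 81 against 151 for neurons minus astrocytes, neurons minus oligodendrocytes and astrocytes minus oligodendrocytes, and no scaling 100 against 151 for the last.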
